A study of Rattus norvegicus with 8 samples.

Results

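miR-204, miR-211, miR-448 and miR-1298 are miRNAs known from the choroid plexus, the secretory epithelium that hangs in the brain's ventricles. They were followed here in the medial vestibular nucleus (MVN) of rats after unilateral vestibular deafferentation (UVD) or a sham operation (SO). The miRNAs were chosen by name, with any arm of the hairpin, and they comprised 7 of the 758 mature miRNAs on the array, from 4 precursors (rno-miR-204-5p, rno-miR-204-3p, rno-miR-211-5p, rno-miR-211-3p, rno-miR-448-5p, rno-miR-448-3p and rno-miR-1298, written below without the species prefix). They were chosen with their values on these 8 arrays known, and miR-204-5p was also a candidate that the study took from the same arrays. Levels and differences between groups are therefore given as a description, with no test. In the study's own quantitative RT-PCR of other animals, miR-204-5p showed no significant difference between UVD and SO at any timepoint, and it was not taken further. All 7 were detected on all 8 arrays, and all 7 were among the 422 miRNAs that passed the filter on detection.

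The MVN lies in the brainstem and takes in the nerve of the balance organ, which is lost on the left after UVD. Male Sprague–Dawley rats of 7 weeks had the left labyrinth destroyed surgically and with ethanol in the UVD group, or a sham operation on the left side in the SO group. The left MVN was dissected 4 h or 4 d after surgery. Each of the 4 groups (SO 4 h, SO 4 d, UVD 4 h and UVD 4 d) had 2 arrays. Tissue from 3 animals was pooled for each array, so an array is a pool and a single animal cannot be seen.

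A miRNA is cut from a hairpin precursor whose 5p and 3p arms can each yield a mature strand, and bases 2 to 8 of that strand, the seed, lead it to its targets. miR-204 lies within Trpm3 and miR-211 within Trpm1, both genes for channels of the same family. miR-204 is abundant in choroid plexus epithelium and retinal pigment epithelium, and miR-211 is best known from pigment cells. miR-448 and miR-1298 lie within Htr2c, the gene of the serotonin 2C receptor, which is expressed strongly in choroid plexus and also in neurons. The MVN borders the fourth ventricle, in whose roof a part of the choroid plexus lies. These arrays measured miRNAs and no mRNA, so choroid plexus genes such as Htr2c itself were not analysed here, and the cells from which the signal came are not identified by the data.

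The mature sequences show which of these miRNAs can be mistaken for one another, and they are printed 5′ to 3′ with the seed in capitals. They were taken from RefSeq on build GRCr8, where all 7 had an entry.
miR-204-5p: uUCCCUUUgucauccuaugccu
miR-211-5p: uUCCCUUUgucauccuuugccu
miR-204-3p: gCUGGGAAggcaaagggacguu
miR-211-3p: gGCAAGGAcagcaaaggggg
miR-1298: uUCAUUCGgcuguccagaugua
miR-448-3p: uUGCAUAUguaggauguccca
miR-448-5p: aACAUCCUgcauagugcugcca
miR-764-3p: gAGGAGGCcauaguggcaacugu
The 5p arms of miR-204 and miR-211 had the same seed and differed at 1 of 22 bases, A17U, with miR-204-5p as the reference and positions counted from its 5′ end. No other mature miRNA in the RefSeq table had their seed. Their 3p arms had different seeds and shared 14 bases when aligned over their lengths of 22 and 20. The arms of miR-448 and miR-1298 shared no seed with any other mature miRNA of the table. miR-764-3p, printed last, is not one of the 7 and is shown because it is encoded in the same gene as miR-448 and miR-1298.

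On GRCr8 the miR-204 hairpin lies at chr1:229743461-229743570 within Trpm3, and the miR-211 hairpin lies at chr1:127189328-127189433 within Trpm1. The miR-1298 hairpin lies at chrX:115556947-115557085 and the miR-448 hairpin at chrX:115641955-115642066, both within Htr2c and 84.9 kb apart. All 4 hairpins are on the plus strand. Within the same gene lie the hairpins of miR-764 and miR-1912, at 66.2 kb and 58.8 kb before that of miR-1298. The annotation used here gives the span of each gene and not its exons.

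Between 378 and 430 of the 758 miRNAs were detected per array, and no spot was saturated. Replicate 1 of the UVD group at 4 d had the largest summed signal (789972, against 526349 to 646920 on the other 7 arrays). All values below are normalized intensity values after quantile normalization over the 8 arrays, unless they are called total signal, which is the scanner's value before any scaling. The median difference between the replicates of a group over the 422 tested miRNAs was 0.09 to 0.15 on the log2 scale. Arrays of the UVD group filled 1 row of the slide and arrays of the SO group the other, and the timepoints filled separate columns, so position on the slide and group cannot be told apart.

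Among the 7, miR-1298 differed most between the UVD group at 4 d and the others. It reached 124.6 and 48.9 in the UVD group at 4 d, 18.6 and 16.1 for UVD at 4 h, 25.3 and 22.7 for SO at 4 h, and 18.6 and 10.5 for SO at 4 d. Both UVD pools at 4 d thus lay above all other pools, and the first of them lay far above the second. The group means were 86.8 ± 53.5, 17.4 ± 1.83, 24.0 ± 1.83 and 14.6 ± 5.73 in that order (SD, n = 2 each). Within the UVD group the mean was higher at 4 d than at 4 h by 2.17 on the log2 scale (SE 0.50), which is 4.51-fold, and at 4 d UVD exceeded SO by 2.48 (SE 0.50), or 5.57-fold. Within the SO group it was lower at 4 d than at 4 h by 1.71-fold (log2 difference -0.77, SE 0.50). These SE values share 1 estimate of spread over all 4 groups. The replicates differed by 1.35 (UVD) and 0.82 (SO) on the log2 scale at 4 d, against 0.22 and 0.16 at 4 h. The SE of the difference between UVD and SO at 4 d is therefore smaller than these groups alone would give. In tissue pools such as these, fewer cells of a type and less RNA per cell cannot be told apart.

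The size of the miR-1298 difference depended on the signal that was used. With the authors' own normalized values, the difference between the UVD and SO groups at 4 d was 0.96 on the log2 scale, and with a background correction that adds an offset to each spot (normexp) it was 0.75. Without replicate 1 of the UVD group at 4 d it was 1.80, and without replicate 2 it was 3.18. The direction was the same in each of these, and only the size changed.

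miR-1298 was read by 2 probes with 8 spots each on every array, and both read highest on the UVD arrays at 4 d. In total signal, 1 probe read 117 and 39.3 on the UVD arrays at 4 d and 9.66 to 18.8 on the other 6 arrays. The other probe read 33.3 and 12.2 on the UVD arrays at 4 d and at most 5.24 elsewhere. All 16 of its spots on the UVD arrays at 4 d were well above background, against 6 of 48 on the other arrays and 0 of 16 on the SO arrays at 4 d, so that it gives no fold for the comparison at 4 d. All spots of the first probe were well above background, and its unscaled difference between the UVD and SO groups at 4 d was 2.50 on the log2 scale.

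**Figure D1:**
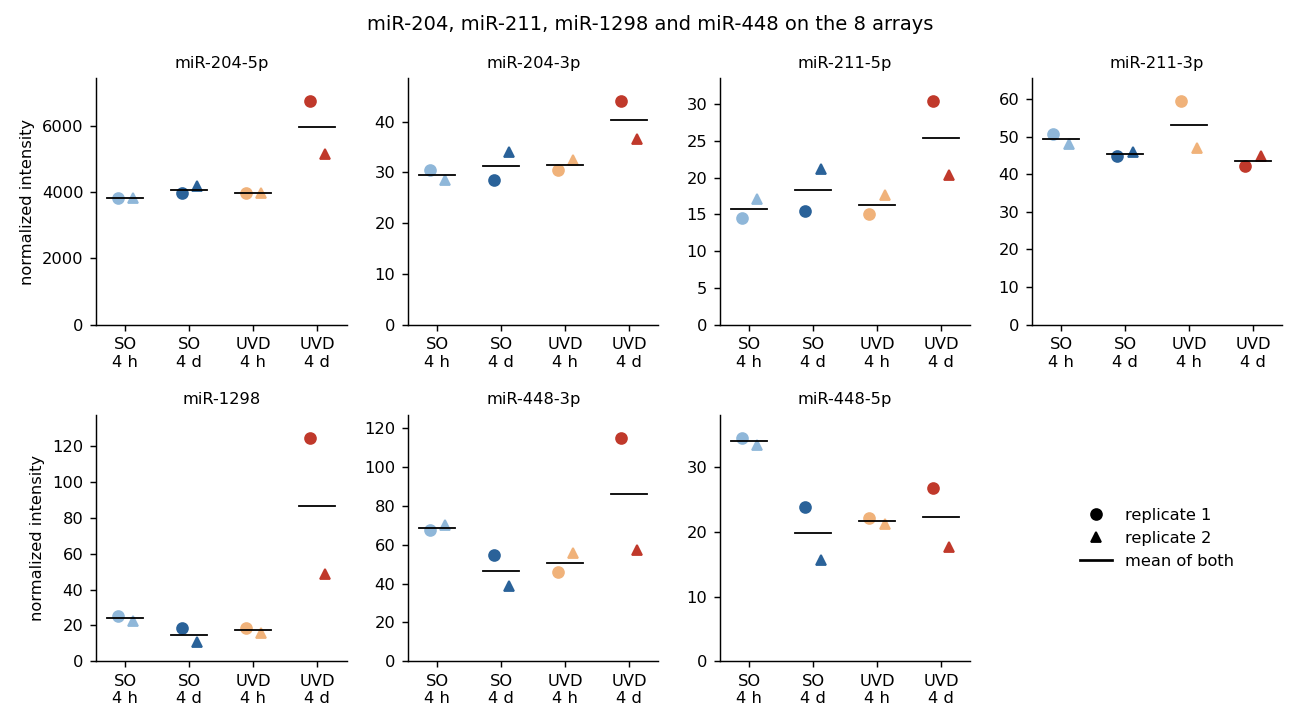
Normalized intensity values (linear axes starting at 0) of the 7 miRNAs on the 8 arrays, with circles for replicate 1, triangles for replicate 2 and a bar for their mean. Replicate 1 of the UVD group at 4 d is the highest array for 5 of the 7 (miR-204-5p, miR-204-3p, miR-211-5p, miR-1298 and miR-448-3p), while miR-211-3p and miR-448-5p are not highest there.

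miR-204-5p, the main strand of its hairpin, also had both UVD pools at 4 d above all other pools. Its normalized intensity was 6745 and 5151 in the UVD group at 4 d, 3957 and 3957 for UVD at 4 h, 3820 and 3820 in the SO group at 4 h, and 3957 and 4180 in the SO group at 4 d. The 6 pools outside the UVD group at 4 d lay close together, and equal values there came from quantile normalization, which gives miRNAs of equal rank the same value. In total signal the same pools read 3560 and 3842 (UVD 4 h), 3240 and 3986 (SO 4 h) and 3861 and 4281 (SO 4 d), against 8854 and 5112 in the UVD group at 4 d. The UVD group was higher at 4 d than at 4 h by 0.57 on the log2 scale (SE 0.13, 1.49-fold), and higher than the SO group at 4 d by 0.54 (SE 0.13, 1.45-fold). The SO group changed by 0.09 (SE 0.13) between the timepoints, and UVD and SO differed by 0.05 (SE 0.13) at 4 h.

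In order of mean level, the UVD group at 4 d (5948 ± 1127, SD, n = 2) was followed for miR-204-5p by the SO group at 4 d (4068 ± 157), the UVD group at 4 h (3957) and the SO group at 4 h (3820). The SO group at 4 d and the UVD group at 4 h shared a value, and in total signal the SO group at 4 h overlapped with both. Without replicate 1 of the UVD group at 4 d, its difference from the SO group was 0.33 on the log2 scale. Both probes of miR-204-5p, with 8 spots each, gave similar unscaled differences at 4 d (0.72 and 0.74).

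The other strand of this hairpin, miR-204-3p, had the same order of groups at the top. It read 44.1 and 36.5 in the UVD group at 4 d and 28.6 to 34.0 on the other 6 arrays, so that the UVD group at 4 d did not overlap with them. The means of those 3 other groups lay between 29.5 and 31.5, within the range of their pools. The difference between the UVD and SO groups at 4 d was 0.36 (SE 0.13), and that between the UVD timepoints was 0.35 (SE 0.13). These were 0.17 and 0.16 with the authors' values and 0.11 and 0.11 with normexp. Of its 4 probes, the 3 that rose above background gave unscaled differences of 0.55 to 0.71 between the UVD and SO groups at 4 d, and the fourth had 0 of 32 spots well above background.

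miR-211-5p, whose sequence differs by 1 base from miR-204-5p, was read at 30.5 and 20.4 in the UVD group at 4 d and 15.0 and 17.7 for UVD at 4 h. In the SO group it was read at 14.5 and 17.1 at 4 h and at 15.5 and 21.2 at 4 d. The higher SO pool at 4 d thus lay above the lower UVD pool at 4 d, and these groups overlapped. The means were 25.4 ± 7.11, 16.4 ± 1.89, 15.8 ± 1.84 and 18.3 ± 4.06 (SD, n = 2 each) for the UVD group at 4 d and 4 h and the SO group at 4 h and 4 d. The log2 difference between the UVD and SO groups at 4 d was 0.46 (SE 0.25). It was 0.10 with the authors' values, 0.07 with normexp and 0.16 without replicate 1 of the UVD group at 4 d.

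The arm from the other side of the miR-211 hairpin did not have this pattern. miR-211-3p read 42.3 and 44.9 in the UVD group at 4 d, 59.5 and 46.9 for UVD at 4 h, 50.7 and 48.0 in the SO group at 4 h, and 44.9 and 46.0 in the SO group at 4 d. Replicate 1 of the UVD group at 4 d, the highest array for miR-211-5p, was the lowest for miR-211-3p after quantile normalization. In total signal it was not the lowest for miR-211-3p (49.2), and replicate 2 of the UVD group at 4 h was (41.6). The difference between the UVD and SO groups at 4 d was -0.06 (SE 0.12), and in total signal the 8 arrays stayed between 41.6 and 55.6. Without scaling of the arrays that difference was 0.15, so its direction is not settled.

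Within an array, miR-211-5p followed miR-204-5p closely. The total signal of miR-204-5p spanned 1.45 on the log2 scale from the lowest to the highest array and that of miR-211-5p spanned 1.53. The log2 difference between them spanned only 0.22, with an SD of 0.065 over the 8 arrays. The scanner's own error for miR-211-5p was 8.35% to 11.8% of its signal, which is an error per array and not a span. For the 376 other miRNAs detected on all 8 arrays, the median span of the difference to miR-204-5p was 1.12. It was smaller than that of miR-211-5p for 0 of them, 0.54 for miR-204-3p, and 1.49 for miR-211-3p. A single factor per array leaves this measure as it is, because both values come from the same array, whereas quantile normalization does not, and after it the difference spanned 0.42. Of the 3 probes of miR-211-5p, 2 gave signal and the third had 1 of 48 spots well above background. Whether the probes for miR-211-5p also take up miR-204-5p was not tested.

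**Figure D2:**
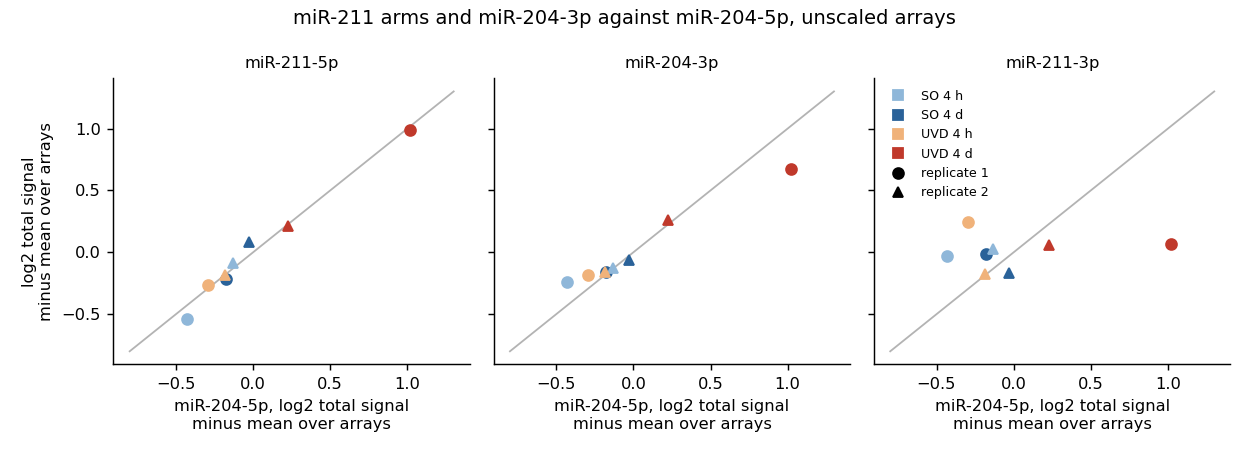
Log2 total signal of miR-211-5p, miR-204-3p and miR-211-3p (vertical) against that of miR-204-5p (horizontal), each as the difference from its mean over the 8 arrays, with the line of equal change in gray. miR-211-5p lies along the line, with a span of 0.22 around it, whereas miR-211-3p stays level and departs from it by a span of 1.49.

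miR-448-3p was read at 115 and 57.2 in the UVD group at 4 d and at 46.0 and 55.5 for UVD at 4 h. In the SO group it was read at 67.3 and 70.0 at 4 h and at 54.5 and 38.6 at 4 d. The second UVD pool at 4 d lay just above the UVD pools at 4 h and below both SO pools at 4 h. The means were 86.1 ± 40.9 (UVD 4 d), 68.6 ± 1.90 (SO 4 h), 50.8 ± 6.70 (UVD 4 h) and 46.6 ± 11.3 (SO 4 d; SD, n = 2 each), and the last 2 groups overlapped. The UVD group at 4 d was higher than the SO group by 0.82 on the log2 scale (SE 0.36) and higher than the UVD group at 4 h by 0.68 (SE 0.36). Without replicate 1 of the UVD group at 4 d these values fell to 0.32 and 0.19.

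The 5p arm of the same hairpin was highest in the SO group at 4 h. miR-448-5p read 34.6 and 33.4 there, 23.9 and 15.7 in the SO group at 4 d, 22.1 and 21.2 for UVD at 4 h, and 26.8 and 17.7 in the UVD group at 4 d. The last 3 groups overlapped, and the SO group at 4 h lay above all of them. In the SO group the log2 difference of 4 d from 4 h was -0.81 (SE 0.27), and at 4 h that of the UVD group from the SO group was -0.65 (SE 0.27). The UVD and SO groups differed by 0.17 (SE 0.27) at 4 d, and the sign turned without replicate 1 of the UVD group at 4 d (-0.13). Of its 2 probes, 1 had 8 of 64 spots well above background and the other all 64.

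Among the 4 other mature miRNAs on the array whose hairpins lie within Htr2c, miR-764-3p was detected on all 8 arrays and the others on 1 or none. miR-764-3p read 34.0 and 32.8 in the SO group at 4 h, 24.4 and 16.8 in the SO group at 4 d, 20.7 and 22.9 for UVD at 4 h, and 22.1 and 19.1 in the UVD group at 4 d. Its highest group was thus the SO group at 4 h, as for miR-448-5p. The remaining groups overlapped, and the order of their means differed from that of miR-448-5p. The limma test gave adjusted p = 0.148 for its log2 difference of -0.72 (SE 0.19) between the SO timepoints and adjusted p = 0.247 for that of -0.62 (SE 0.19) between UVD and SO at 4 h, so neither passed. miR-1912-3p was detected on a single array, replicate 1 of the UVD group at 4 d, with a total signal of 10.4. miR-764-5p and miR-1912-5p were detected on no array.

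Outside the UVD group at 4 d the detected miRNAs of Htr2c moved together. With that group included, miR-1298 no longer followed miR-764-3p and miR-448-5p. Over the 6 arrays of the other 3 groups, the Pearson correlation of log2 values between miR-1298 and miR-764-3p was 0.92, that between miR-1298 and miR-448-5p was 0.96, and that between miR-1298 and miR-448-3p was 0.88. Over all 8 arrays these were 0.04, 0.26 and 0.87. On the UVD arrays at 4 d, miR-1298 and, on replicate 1, miR-448-3p stood above their level on the other arrays, while miR-764-3p did not. The correlation between miR-448-5p and miR-764-3p was high in both cases (0.99 over 6 arrays and 0.95 over 8). These arrays share their normalization and only 2 arrays make a group, so the correlations are descriptions of 8 pools. High values in the SO group at 4 h were common. Both SO pools at 4 d lay below both at 4 h for 28.7% of all tested miRNAs. Both UVD pools at 4 h lay below both SO pools at 4 h for 28.4%. Over the same 6 arrays miR-204-5p, encoded in another gene, correlated with each of these Htr2c miRNAs at -0.95 to -0.98. In total signal, the difference between miR-448-5p and miR-764-3p spanned 0.39 on the log2 scale, that between miR-448-3p and miR-448-5p spanned 0.95, and that between miR-1298 and miR-448-3p spanned 2.15.

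**Figure D3:**
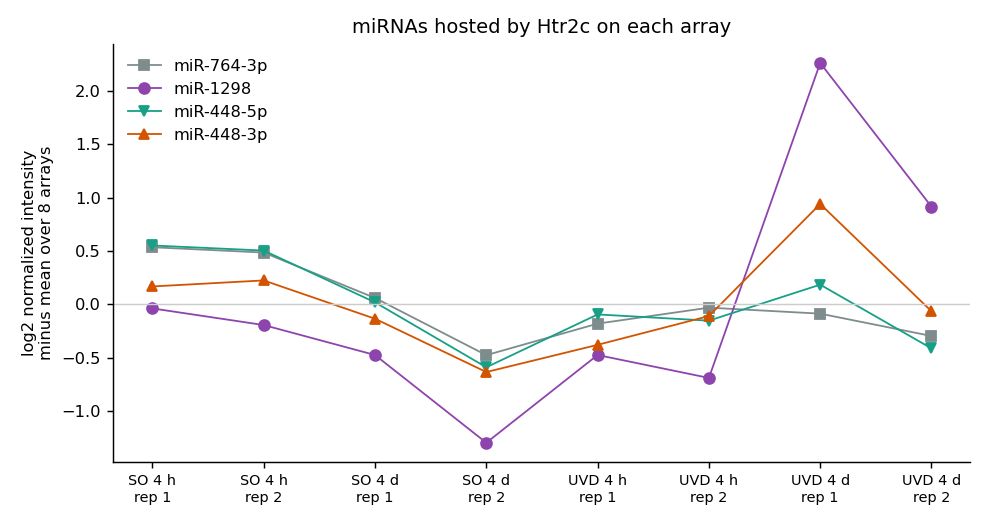
Log2 normalized intensity of the 4 detected miRNAs within Htr2c, each minus its own mean over the 8 arrays. Lines join the points of a miRNA and have no meaning between arrays. miR-764-3p and miR-448-5p run together on all arrays, while miR-1298 and miR-448-3p rise above them on replicate 1 of the UVD group at 4 d, and miR-1298 also on replicate 2.

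The likeness of miR-1298 to miR-204-5p rested on the UVD group at 4 d. Over all 8 arrays the Pearson correlation of log2 values was 0.89 (Spearman 0.23). Over the 6 arrays of the other groups it was -0.98, where miR-204-5p varied between 3820 and 4180 only. The correlation between miR-204-5p and miR-204-3p was 0.95 over 8 arrays and 0.73 over those 6, and that between miR-204-5p and miR-211-5p was 0.91 and 0.75.

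For each of the 7, the 5 tested miRNAs with the highest correlation of log2 values over the 8 arrays were listed out of 421 others. The first for miR-204-5p was miR-204-3p (0.95), followed by miR-7a-1-3p (0.91), miR-211-5p (0.91), miR-1298 (0.89) and miR-93-5p (0.84). For miR-204-3p they were miR-204-5p (0.95), miR-211-5p (0.93), miR-93-5p (0.89), miR-3084a-3p (0.88) and miR-106b-5p (0.87), and for miR-211-5p they were both arms of miR-204, miR-7a-1-3p (0.90), miR-3084a-3p (0.86) and miR-93-5p (0.85). The list of miR-1298 held miR-204-5p, miR-448-3p (0.87), miR-7a-1-3p (0.79), miR-204-3p (0.76) and miR-221-3p (0.75). Each of these lists thus held at least 1 other of the 7. That of miR-448-3p held miR-1298, miR-421-3p (0.77), miR-3068-3p (0.66), miR-204-5p (0.66) and miR-743a-3p (0.64). By contrast, the lists of the remaining arms held none of the 7: miR-448-5p was closest to miR-764-3p (0.95), miR-487b-3p (0.93), miR-543-3p (0.91), miR-1843a-5p (0.90) and miR-7b (0.90), and miR-211-3p to miR-188-5p (0.90), miR-212-3p (0.88), miR-145-5p (0.87), miR-370-3p (0.83) and miR-103-3p (0.80).

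The replicates of a group agreed less well at 4 d than at 4 h for 6 of the 7, all but miR-211-3p. Over all 422 tested miRNAs the median size of the replicate difference was also larger at 4 d. It was 0.13 against 0.10 in the UVD group and 0.15 against 0.09 in the SO group. The share of all miRNAs with a larger difference at 4 d in both groups was not counted. In the UVD group at 4 d, replicate 1 was above replicate 2 by 1.35 on the log2 scale for miR-1298, by 1.01 for miR-448-3p, by 0.60 for miR-448-5p, by 0.58 for miR-211-5p, by 0.39 for miR-204-5p and by 0.27 for miR-204-3p. Only miR-211-3p was the other way (-0.09). The median size of this difference over all 422 miRNAs in that group was 0.13, and it was larger than that of miR-1298 for 9 of them, than that of miR-448-3p for 19 and than that of miR-204-5p for 73. Replicate 1 of the UVD group at 4 d was the highest of the 8 arrays for 5 of the 7, and for 41 of the 422 tested miRNAs (9.72%).

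The replicates of the SO group at 4 d differed as well, and the miRNAs went in 2 directions there. Replicate 1 was above replicate 2 by 0.82 for miR-1298, 0.61 for miR-448-5p and 0.50 for miR-448-3p. It was below replicate 2 for miR-211-5p (-0.46), miR-204-3p (-0.25) and miR-204-5p (-0.08). The miRNAs of Htr2c thus differed between these pools in the opposite direction to miR-211-5p and miR-204-3p. For miR-204-5p and miR-211-3p (-0.03) the difference was smaller than the median size over all tested miRNAs in that group, 0.15. At 4 h, the difference between replicates ranged in size from 0 to 0.34 in the UVD group and from 0 to 0.24 in the SO group over the 7.

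**Figure D4:**
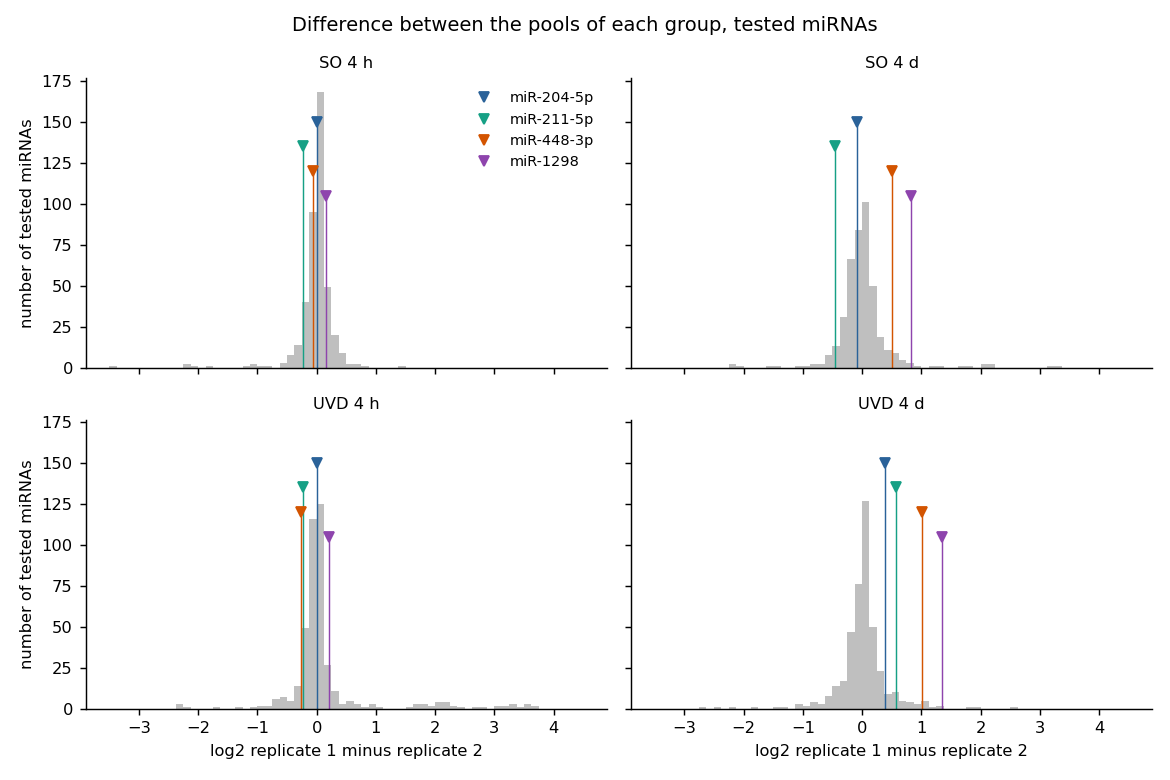
Gray bars count the 422 tested miRNAs by the log2 difference between replicate 1 and replicate 2 in each group, and colored markers show miR-204-5p, miR-211-5p, miR-448-3p and miR-1298 (marker height carries no value). In the UVD group at 4 d all 4 markers lie to the right, up to 1.35 for miR-1298, and at 4 h they lie between -0.27 and 0.22 in both groups.

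In the limma fit over all 422 tested miRNAs, 0 passed the threshold between the UVD timepoints (0%; 65 at an unadjusted p under 0.05), 7 between the SO timepoints (1.66%), 2 between UVD and SO at 4 h (0.474%) and 0 at 4 d (0%; 16 at an unadjusted p under 0.05). Other settings of the fit gave up to 11, 21, 10 and 2 in these comparisons. Of the 7, both pools of the UVD group at 4 d lay above both at 4 h for 5, against 19.0% of all tested miRNAs, and below them for 1 (miR-211-3p), against 25.4%. They lay above both SO pools at 4 d for 4 (miR-204-5p, miR-204-3p, miR-448-3p and miR-1298), against 12.1%, and below them for 0, against 17.3%. Between the SO timepoints, 1 of the 7 was higher at 4 d (miR-204-5p), against 25.6%, and 4 were lower (miR-211-3p, both arms of miR-448 and miR-1298), against 28.7%. At 4 h, 1 was higher after UVD (miR-204-5p), against 22.5%, and 3 were lower (both arms of miR-448 and miR-1298), against 28.4%. In total signal the pools of miR-204-5p overlapped both between the SO timepoints and between UVD and SO at 4 h. Since the 7 were chosen on these values, the counts describe the choice. The median log2 difference over the 7 was 0.57 between the UVD timepoints and 0.46 between the UVD and SO groups at 4 d, beside -0.01 and -0.02 over all tested miRNAs.

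**Figure D5:**
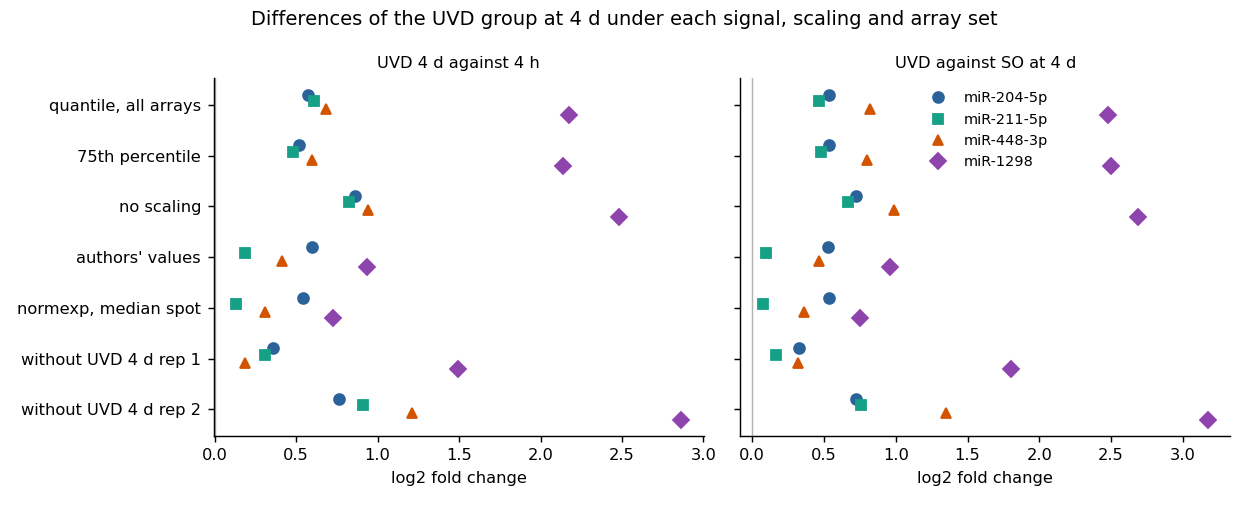
Log2 differences of miR-204-5p, miR-211-5p, miR-448-3p and miR-1298 between the UVD group at 4 d and the UVD group at 4 h (left) or the SO group at 4 d (right), under other scalings, other signals and without either UVD array at 4 d. All lie above 0, and miR-1298 ranges from 0.75 to 3.18 in the comparison with the SO group at 4 d.

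Markers of other cells at the ventricle were set beside these values. miR-34b, miR-34c and miR-449 are miRNAs of ciliated cells, such as the ependyma that lines the ventricle, and 5 of their 8 mature forms were tested. Their summed normalized intensity was 2207 to 2315 in the UVD group at 4 d, 2167 to 2271 in the SO group at 4 d, 1970 to 2106 in the UVD group at 4 h and 1372 to 1563 in the SO group at 4 h. The sum was thus lowest in the SO group at 4 h, where miR-448-5p and miR-764-3p were highest, and it was similar in both groups at 4 d, where miR-1298 and miR-204-5p differed. By limma, 1 of the 5 passed between the SO timepoints, miR-34c-5p (log2 difference 0.64, SE 0.08, adjusted p = 0.0386). That call was lost with either 75th percentile scaling, without scaling, and with any single array left out except SO 4 h replicate 1. In the same fit 0 of the 5 passed between the UVD timepoints or between the UVD and SO groups at either time. Their median log2 difference between the UVD and SO groups at 4 d was 0.08. The sum is set mainly by miR-34b-5p and miR-34c-5p. At 4 d both UVD pools lay above both SO pools for miR-34c-5p (1046 and 1046 against 976 and 1000). The same held for miR-449a-5p (9.22 and 8.87 against 4.94 and 7.31), while miR-34b-5p, miR-34b-3p and miR-34c-3p overlapped. Of all tested miRNAs, 12.1% had both UVD pools higher there. miR-449a-5p read 9.22 and 8.87 in the UVD group at 4 d and 4.14 on replicate 1 at 4 h, and it was not detected on replicate 2 at 4 h, so no fold is given for that comparison (adjusted p = 0.282 by limma). Of the list, 3 of the 8 were detected on no array, namely both arms of miR-449c and miR-449a-3p.

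Of the 9 mature forms of the miR-200 family and miR-141, which mark many epithelia, 8 were detected on no array, and miR-141-3p was detected on all. miR-141-3p read 16.4 and 8.66 in the UVD group at 4 d, 20.9 and 28.2 for SO at 4 d, 22.5 and 14.0 for UVD at 4 h, and 9.22 and 3.55 for SO at 4 h. At 4 d it was thus lower after UVD than after SO, the opposite order to that of miR-1298. For erythroid miRNAs (4 of 5 tested), the sum was 1288 on replicate 1 and 875 on replicate 2 of the UVD group at 4 d, beside 741 to 1062 on the other 6 arrays, so that replicate 1 was highest there too. Muscle miRNAs (5 of 8 tested) summed to 2374 and 1781 on these replicates and to 1611 to 2397 on the others. Such a sum is set mainly by the most abundant miRNAs of a list, here miR-133b-3p (group means 1649 to 1972). Of the 5, only miR-206-3p had a higher mean in the UVD group at 4 d than at 4 h (log2 difference 1.15, adjusted p = 0.282 by limma). The same held against the SO group at 4 d (0.70, adjusted p = 0.745 by limma). Oligodendrocyte miRNAs (4 of 5 tested) summed to 53705 and 45375 on replicates 1 and 2 of the UVD group at 4 d, and to 53698 to 59719 on the other 6 arrays. Leukocyte miRNAs (7 of 10 tested) summed to 3958 and 4267 on these replicates and to 3249 to 3933 on the others, so that both UVD arrays at 4 d lay above the other 6, as for miR-1298 and miR-204-5p. Replicate 2, where the leukocyte sum was higher, was the lower of the pair for miR-1298 and miR-204-5p. Neuronal miRNAs (10 of 12 tested) summed to 68586 and 72498, against 64166 to 68594 on the others, with replicate 2 above their range. Vessel miRNAs (5 of 6 tested) summed to 7624 and 7577, against 7596 to 8431, with replicate 2 below their range. The part of any of these in the differences of miR-1298 and miR-204-5p was not tested.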

How the data were processed

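RNA from pooled left MVNs was labeled with a single dye and hybridized to rat miRNA arrays, 1 array per pool. Per the file headers, Agilent Feature Extraction 10.7.3.1 read the scans, and the authors deposited its intensity values, in which background-subtracted spot signals are summed into a total signal per miRNA (16 spots each). Their own quantile-normalized intensity values served as an alternative. The deposited detection and spot flags (other values, 0 or 1) were taken as given. Total signals were quantile normalized here over the 8 arrays as in the study's methods, set to at least 1, and transformed to log2. Those with detection on each array of some group (422) were fitted with limma 3.58.1 in R 4.3.3 (4 group means, lmFit and eBayes), with Benjamini-Hochberg adjustment over all of them and a threshold of 0.05. The fit was tested on simulated data with 1 spread per miRNA for all 4 groups, so that test does not cover groups of unequal spread. SE values are from the fit to the arrays, which uses 1 estimate of spread per miRNA for all 4 groups. A miRNA thus has the same SE in each comparison of 2 groups. Where replicates differed more at 4 d than at 4 h, this SE is low for the comparison of UVD and SO at 4 d. The miRNAs, the marker lists and the rule for named miRNAs (all arms, detected relatives, the 5 closest by correlation, and listed markers that passed) were chosen with earlier results of these data known. Sequences were matched by name to RefSeq, which held 685 of the 758. The methods' t-test served as an alternative. Replicate numbers are from the sample titles. With 2 pools per group, p-values measure the spread between pools, and 2 arrays limit the precision of every value.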

Additional observations from a re-analysis of the deposited data

Results flagged for a closer look

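The change between the timepoints went opposite ways in the UVD and SO groups for miR-1298 and miR-448-3p, with both UVD pools higher at 4 d than at 4 h and both SO pools lower. The log2 change of miR-1298 was 2.17 after UVD and -0.77 after SO, a difference of 2.94 (SE 0.71). That of miR-448-3p was 0.68 and -0.58, a difference of 1.26 (SE 0.51). Of all tested miRNAs, 19.0% had both UVD pools higher at 4 d than at 4 h, and 28.7% had both SO pools lower. The share with both patterns at once was not counted. By limma, 1 of the 422 tested (0.237%), outside the 7, passed for a difference between the time changes. No p-value is given for miR-1298 or miR-448-3p, because both were chosen on these values.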

How the results depend on the processing

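Of 532 recomputed differences of the 7 miRNAs, 470 moved by less than the SD between replicates, 57 moved by more and 5 turned sign by more (13 turned sign at any size, none of them of miR-204-5p, miR-448-3p or miR-1298). Several settings keep the group means of the 7 and could not move a difference. These were a higher minimum value, other detection filters, a block for replicate number and a fit of only the groups compared. Leaving out an array of a group outside the comparison changes only the normalization. The count of 470 is thus partly fixed in advance. In the differences of the UVD group at 4 d from the UVD group at 4 h and from the SO group at 4 d, miR-204-5p moved without scaling (0.86 and 0.73). With the authors' values, those of miR-211-5p were 0.19 and 0.10 and those of miR-1298 were 0.93 and 0.96. With normexp on the median spot signal (the mean is not among the columns), whose offset of 50 lies near the median spot signal of 40 to 49 and so shrinks weak signals, they were 0.13 and 0.074, and 0.73 and 0.75. Leaving out each array in turn gave 0.36 to 0.76 and 0.33 to 0.72 for miR-204-5p, 0.31 to 0.91 and 0.16 to 0.76 for miR-211-5p, and 1.50 to 2.86 and 1.80 to 3.18 for miR-1298, with both ends set by the UVD arrays at 4 d. The sign turned for miR-211-3p without scaling between the UVD timepoints (0.029) and between the UVD and SO groups at 4 d (0.15), with the 75th percentile of all miRNAs between the SO timepoints (0.10), and without UVD 4 h replicate 1 between the groups at 4 h (-0.072, of -0.072 to 0.27 with each array left out). It turned for miR-448-5p at 4 d without UVD 4 d replicate 1 (-0.13, of -0.13 to 0.48). No scaling shifted the median of all tested miRNAs by 0.26 between the UVD timepoints and 0.16 at 4 d, and the 75th percentile of all miRNAs shifted it by 0.20 between the SO timepoints and 0.15 at 4 h. The cause was not tested.

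Calls over all tested miRNAs were 0 to 11 between the UVD timepoints (11 without UVD 4 h replicate 1), 0 to 21 between the SO timepoints (21 with normexp, 19 with the authors' values, 12 without SO 4 d replicate 1), 0 to 10 at 4 h (10 without UVD 4 h replicate 1) and 0 to 2 at 4 d. In the ciliated-cell list between the SO timepoints, the 1 call became 0 with either 75th percentile, no scaling, no filter, only the groups compared, and the methods' t-test. It became 2 with the authors' values, normexp, detection on all 8 arrays, and trend and robust eBayes, and was 0 to 1 with 1 array left out. At 4 h the 0 calls of the list became 2 with normexp and 1 with trend and robust eBayes, and between the UVD timepoints they were 0 to 1 with 1 array left out. Deviations of same-numbered arrays correlated at -0.25 to 0.19, which shows no clear pairing of the pools by number. With 1 difference per group, such correlations cannot exclude a step shared by same-numbered pools. With the replicate number as a block the differences of the 7 were the same, calls between the SO timepoints went from 7 to 2, and the ciliated-cell list went from 1 to 0.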
